A study of Mus musculus with 16 samples.

Results

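Regulators of mRNA decay, which shorten the life of cytokine mRNAs, and the host gene of a microRNA that silences mRNAs were followed in RNA of mouse monocytes, 8 genes in all: Mir155hg, Zc3h12a, Zc3h12c, Zc3h12d, Zfp36, Zfp36l1, Zfp36l2 and Rc3h1. They were taken by symbol, because Mir155hg and Zc3h12c were lower without NFAM1 at 6 h. All 8 are among the 13085 genes of the table, and all 8 are among the 12782 genes that passed the filter on low values. The monocytes came from C57BL/6 mice, either NFAM1+/+ or NFAM1-/-, the latter carrying a germline deletion of exons 2 and 3 of Nfam1. Cells spent 6 or 24 h in culture either untreated or with IFN-γ plus CD40L. CD40L binds CD40 on the monocyte and was given as an oligomer (MegaCD40L) at 1 µg/mL. This gives 8 groups of 2 libraries, 16 in all. Control cells differed from stimulated cells in both agents, so the effects of IFN-γ and of CD40L cannot be told apart. The labels call the cells PBL Monocyte while the study's methods isolate monocytes from bone marrow, and the dose of IFN-γ also differs between labels and methods. The labels do not say which mouse a library came from, so p-values measure the spread between libraries.

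Zfp36 (tristetraprolin), Zfp36l1 and Zfp36l2 are zinc-finger proteins that bind AU-rich elements in the 3′ untranslated region (UTR) of mRNAs and recruit the deadenylase that removes the poly(A) tail. Zc3h12a (Regnase-1) is an endonuclease that cuts stem-loops in the mRNAs of inflammatory cytokines. Zc3h12c (Regnase-3) and Zc3h12d (Regnase-4) belong to the same family, and Rc3h1 (Roquin-1) binds similar stem-loops. Mir155hg is the non-coding host transcript from which miR-155 is cut, a microRNA that activated macrophages and lymphocytes make in quantity and that silences, among others, the cytokine-signalling inhibitor Socs1. The libraries hold polyadenylated RNA, so only the host transcript was measured and not the mature microRNA.

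The mature miR-155 strands are shown because the listed targets below are read against their seeds. Sequences are from RefSeq on GRCm38.p6, with the seed, bases 2 to 8, in capitals. The 5p strand lies at chr16:84714143-84714165 and the 3p strand at chr16:84714182-84714202, both on the plus strand. None of the other mature mouse microRNAs among the 1679 in that table has either seed.
mmu-miR-155-5p: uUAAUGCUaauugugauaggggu
mmu-miR-155-3p: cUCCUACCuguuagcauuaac

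The 3′ UTRs of some protein-coding members hold AU-rich elements, and none holds a match to the miR-155-5p seed. In the longest 3′ UTR that GENCODE vM21 gives each gene, the 9-base core TTATTTATT, the form that the Zfp36 proteins bind best, was present in 4 of 7 members: Zfp36, Zfp36l1, Zfp36l2 and Rc3h1. It was present in 8.18% of the 11266 tested genes with a 3′ UTR, whose median length was 1164 nucleotides. The 3′ UTRs of these 4 members were 774, 1835, 1822 and 7181 nucleotides long. The 7-base complement of the miR-155-5p seed, AGCATTA, was in none of the 7 members and in 9.28% of those genes. These are matches of letters on the coding strand, not sites shown to be bound. The 4 elements are shown with 8 bases on each side and the core in capitals. On GRCm38 they lie at chr7:28376953-28376977 (minus strand) for Zfp36, chr12:80108169-80108193 (minus) for Zfp36l1, chr17:84184916-84184940 (minus) for Zfp36l2 and chr1:160970045-160970069 (plus) for Rc3h1.
Zfp36: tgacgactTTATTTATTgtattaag
Zfp36l1: ctgttggaTTATTTATTttagaaat
Zfp36l2: tatttaacTTATTTATTatcttgtg
Rc3h1: tttactcaTTATTTATTgagatgag

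Values are CPM, read counts scaled to the size of the library, and the libraries hold 48295939 to 88514341 reads. For 4 of the 8 libraries at 24 h, 1 in each group, the genotype in the title is not the one in the genotype tag. Groups follow the titles, and the 24 h genotype differences are also given by tag and in the libraries whose labels name 1 genotype. Nfam1 itself was at 432 and 408 CPM in NFAM1+/+ and at 299 and 321 CPM in NFAM1-/- libraries at 6 h without stimulus, and at 133 and 129 against 135 and 127 CPM with it. At 24 h without stimulus it was by title at 463 and 495 CPM in NFAM1+/+ and at 441 and 391 in NFAM1-/- libraries. With the stimulus the values were 271 and 252 against 201 and 223 CPM. Both NFAM1-/- libraries by title were lower each time, as in 23.5% and 23.2% of all genes. By tag the ranges overlapped in both stimuli. The count of Nfam1 covers exons outside the deletion and checks no label. All 10 monocyte markers on the list were present, with summed levels of 23900 to 26200 CPM at 6 h without stimulus and 9160 to 11100 with it, and of 27200 to 30900 and 8720 to 12000 CPM at 24 h. Of T and NK cell markers 1 of 10 was listed, at no more than 4.02 CPM. Summed B-cell markers (4 of 8 listed) were at 139 to 166 CPM without and 317 to 371 with the stimulus at 6 h, and at 127 to 198 and 34.6 to 42.4 CPM at 24 h. Most of this sum was Ighm, at 33 to 370 CPM, while Cd79a was at no more than 1.22 CPM. Neutrophil markers (9 of 10 listed) summed to 407 to 732 CPM in unstimulated 24 h libraries and to 187 CPM at most elsewhere. Of these Mmp8 reached 227, Ngp 225 and Ltf 187 CPM, and Ly6g was at no more than 2.22 CPM. Dendritic cell markers (6 of 6 listed) summed to 92.9 to 194 CPM in unstimulated 24 h libraries and to 55.5 CPM at most elsewhere, with Flt3 highest, at up to 145 CPM. The part of these other cells in the results below was not tested, and in bulk RNA fewer cells of a type and less RNA per cell cannot be told apart.

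Mir155hg had the largest stimulus difference of the 8 genes at both times. At 6 h the 4 unstimulated libraries were at 3.10, 3.18, 1.93 and 1.86 CPM, and the 4 with IFN-γ plus CD40L were at 69.1, 57.6, 38.1 and 36.5 CPM, NFAM1+/+ first in each case. The lowest stimulated library stood far above the highest unstimulated one. This was a 19.9-fold rise (log2 fold change 4.31 ± 0.15 SE, limma adjusted p = 3.17e-12, n = 4 against 4). At 24 h the unstimulated libraries were at 1.08, 0.68, 0.52 and 0.40 CPM, resting on 34 to 88 reads each, and the stimulated ones at 37.2, 38.5, 23.3 and 18.9 CPM. The rise was 45.2-fold (log2 5.50 ± 0.15, adjusted p = 3.9e-13). The larger fold at 24 h went with a lower unstimulated level and not with a higher stimulated one.

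**Figure D1:**
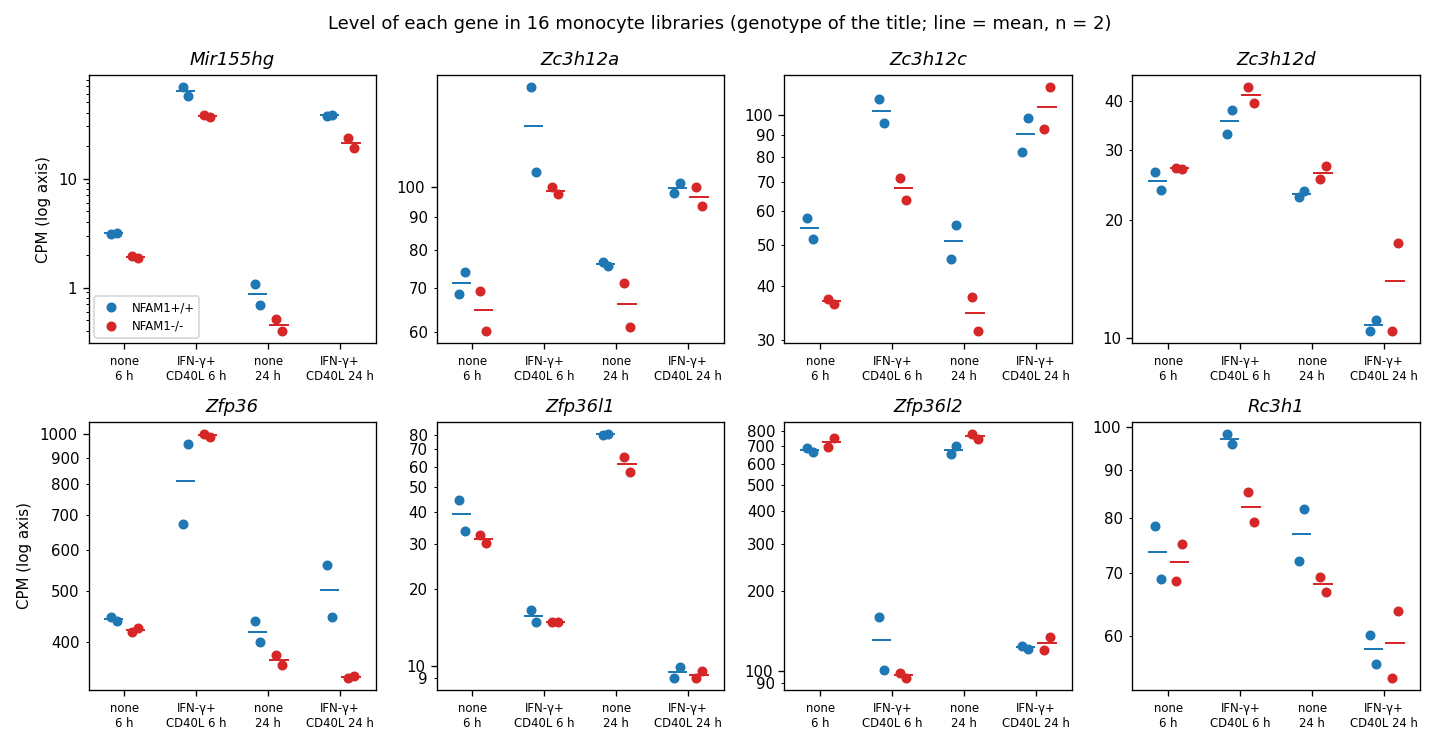
CPM of each gene (log axis, its own range in each panel) in the 16 libraries by stimulus and time, with NFAM1+/+ in blue and NFAM1-/- in red by title, each point 1 library and each line the mean of 2. Mir155hg rose from at most 3.18 to at least 18.9 CPM, Zfp36l1 and Zfp36l2 fell in every stimulated group, and Zc3h12d lay above its unstimulated levels at 6 h and below them at 24 h.

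The Zc3h12 endonuclease family did not move as one. Zc3h12a was at 60.1 to 74.2 CPM in the 4 unstimulated libraries at 6 h and at 142.5, 105.4, 100.0 and 97.5 CPM with the stimulus, a 1.62-fold difference (log2 0.70 ± 0.08, limma adjusted p = 3.5e-06). It was 1.38-fold higher at 24 h (log2 0.47 ± 0.08, adjusted p = 0.000182), with 61.0 to 76.8 CPM without and 93.5 to 101 CPM with the stimulus. Both differences were below the 2-fold threshold that a call required here, beside an adjusted p under 0.05. At neither time did stimulated and unstimulated libraries overlap.

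Zc3h12c was at 57.7, 51.5, 37.5 and 36.4 CPM without and 109.1, 95.9, 71.6 and 63.6 CPM with the stimulus at 6 h (log2 0.89 ± 0.10, limma adjusted p = 9.98e-07). At 24 h it was at 46.4, 55.7, 37.7 and 31.4 CPM without and 82.0, 98.9, 93.1 and 116.5 CPM with the stimulus, and the 2.31-fold rise was called (log2 1.21 ± 0.10, adjusted p = 4.39e-08). The groups did not overlap at either time. Within each stimulus at 6 h the 2 NFAM1-/- libraries were the lowest, while the highest library at 24 h was NFAM1-/- by title.

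Zc3h12d turned from higher to lower between the times. At 6 h it was at 23.8 to 27.1 CPM in unstimulated and at 33.1, 38.0, 43.5 and 39.7 CPM in stimulated libraries (log2 0.56 ± 0.12, limma adjusted p = 0.000772, below 2-fold). At 24 h it fell 2.05-fold (log2 -1.04 ± 0.12, adjusted p = 2.98e-06), from 22.8 to 27.3 CPM in unstimulated libraries to 10.4, 11.1, 10.5 and 17.4 CPM in stimulated ones. The fall stood at -0.85 (adjusted p = 5.11e-07) without the lower of the 2 stimulated NFAM1-/- libraries, which takes it below 2-fold. The 2 times differed by -1.60 on the log2 scale (SE 0.17, adjusted p = 2.04e-06).

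Among the AU-rich binders, Zfp36 rose at 6 h while Zfp36l1 and Zfp36l2 fell at both times. Zfp36 was at 419 to 447 CPM without and at 671, 955, 1000 and 987 CPM with the stimulus at 6 h (log2 1.05 ± 0.09, limma adjusted p = 1.34e-07), and the lowest of these 4 was an NFAM1+/+ library. Without the other NFAM1+/+ library of that group the difference was 0.92 (adjusted p = 5.32e-08), below 2-fold. At 24 h unstimulated libraries were at 438, 399, 378 and 361 CPM and stimulated ones at 561, 447, 341 and 344 CPM. These ranges overlapped, and the difference was 0.08 ± 0.09 on the log2 scale (adjusted p = 0.476).

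Zfp36l1 was at 44.6, 33.6, 32.5 and 30.3 CPM without and 16.6, 14.8, 14.9 and 14.8 CPM with the stimulus at 6 h (log2 -1.19 ± 0.09, limma adjusted p = 1.53e-08). At 24 h it was at 79.8, 80.5, 65.6 and 57.1 CPM without and 9.02, 9.88, 8.99 and 9.54 CPM with the stimulus, a 7.49-fold fall (log2 -2.90 ± 0.09, adjusted p = 1.22e-12). Zfp36l2 was at 692, 665, 698 and 749 CPM without and 159, 101, 98.3 and 93.8 CPM with the stimulus at 6 h, a 6.35-fold fall (log2 -2.67 ± 0.10, adjusted p = 1.22e-11). At 24 h its levels were 656 to 779 CPM without and 119 to 134 CPM with the stimulus, a 5.79-fold fall (log2 -2.53 ± 0.10, adjusted p = 2.86e-11). For both genes every stimulated library lay below every unstimulated one of its time.

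Rc3h1 had the smallest stimulus difference of the 8 genes at 6 h. It was at 68.7 to 78.5 CPM without and 79.4 to 98.4 CPM with the stimulus at 6 h (log2 0.30 ± 0.07, limma adjusted p = 0.00111). At 24 h it was at 66.8 to 81.9 CPM without and 54.1 to 63.8 CPM with the stimulus (log2 -0.31 ± 0.07, adjusted p = 0.000932). These were differences of 1.23-fold and 1.24-fold, of opposite sign.

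**Figure D2:**
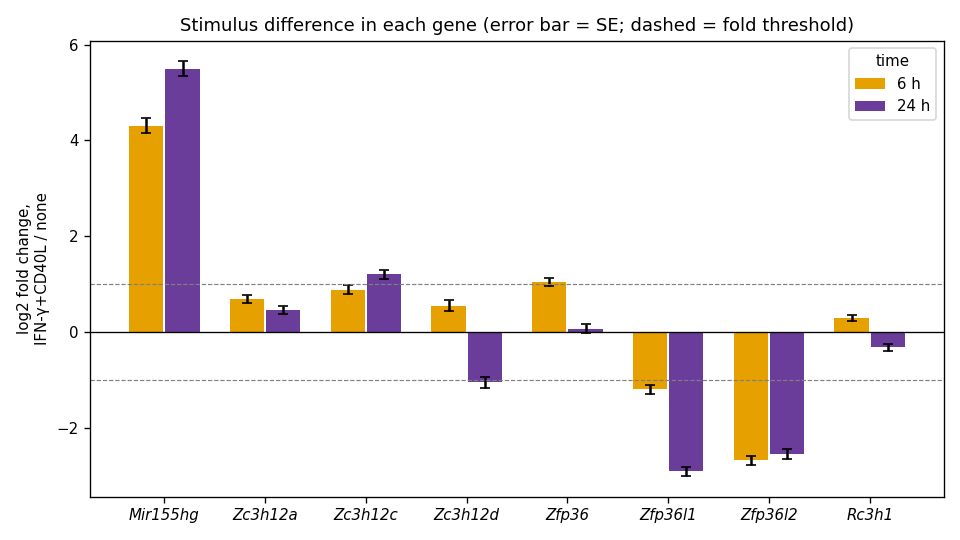
Log2 fold change of IFN-γ plus CD40L over no stimulus in each gene at 6 h and 24 h (y axis), with 4 libraries against 4, SE as error bars and dashed lines at the 2-fold threshold. Mir155hg stood at 4.31 and 5.50, Zfp36l1 at -1.19 and -2.90, and Zc3h12d at 0.56 and -1.04.

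By the call of at least 2-fold and adjusted p under 0.05 (limma), 4 of 8 members were called at 6 h, 2 in each direction, and 5 of 8 at 24 h, 2 higher and 3 lower. Of all genes tested, 39.7% were called at 6 h (19.1% higher, 20.6% lower) and 33.3% at 24 h (14.6% higher, 18.7% lower). With no minimum fold change all 8 members passed at 6 h and 7 at 24 h, against 78.3% and 74.8% of all genes. The stimulus differences at 6 h depended on the scaling of the libraries. The median of all genes was -0.13 on the log2 scale in the deposited scaling and -0.86 when each library was scaled to its own total of reads, where 21.9% of called genes were higher, against 48.1% in the deposited scaling. In that scaling Zc3h12a, Zc3h12d and Rc3h1 stood at -0.03, -0.17 and -0.43 at 6 h, and Zfp36 at 0.31. Relative to the median of all genes they stood at 0.82, 0.69, 0.42 and 1.17. Own totals shift all genes of a library alike, so these values are the same in both scalings by construction. Quantile normalization can change them, and gave 0.56, 0.77, 0.19 and 0.28. Without regard to that median it put Zfp36 at 0.05 and Rc3h1 at -0.03 at 6 h, and Zfp36 at -0.39 at 24 h. Mir155hg, Zfp36l1, Zfp36l2 and Zc3h12c kept their directions at both times in all 4 scalings tried. Own totals shifted these genes alike at each time. Zc3h12c, whose differences were the smallest of these genes, then stood at 0.16 (limma adjusted p = 0.13) at 6 h. At 24 h it stood at 0.88 (adjusted p = 1.11e-06), where it fell below 2-fold and lost its call.

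The difference between the 2 times in the response to the stimulus was tested directly. The libraries of the 2 times are separate sets, so time cannot be told apart from anything else that differed between them. By the same call 3 members passed: Mir155hg (log2 1.19 ± 0.21, limma adjusted p = 0.000181), Zc3h12d, given above, and Zfp36l1 (-1.71 ± 0.12, adjusted p = 4.33e-08). This compares with 31.5% of all genes. Zfp36 (-0.97 ± 0.13, adjusted p = 1.86e-05), Rc3h1 (-0.61 ± 0.10, adjusted p = 7.42e-05) and Zc3h12c (0.32 ± 0.14, adjusted p = 0.0497) passed only without a minimum fold change, as did 67.2% of all genes. Zc3h12a (-0.23 ± 0.12, adjusted p = 0.108) and Zfp36l2 (0.13 ± 0.15, adjusted p = 0.435) did not pass.

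The comparisons of 24 h with 6 h use the same libraries as the stimulus comparisons. They set 1 set of libraries against another, so a rise or fall below is a difference between sets and not only between times. Without stimulus Mir155hg fell 3.91-fold from 6 to 24 h (log2 -1.97 ± 0.15, limma adjusted p = 5.93e-08). Zfp36l1 rose 2.01-fold (log2 1.01 ± 0.09, adjusted p = 2.63e-07), from 30.3 to 44.6 CPM at 6 h to 57.1 to 80.5 CPM at 24 h. Its fold stood at the threshold and dropped below it, to 0.98 or 0.99, in 3 other settings, and to 0.90, 0.98 and 0.96 without 1 NFAM1+/+ or 1 NFAM1-/- library at 6 h or 1 NFAM1-/- library at 24 h. The other 6 members lay between -0.14 and 0.06. Of all genes 21% were called. With the stimulus Zc3h12d (log2 -1.67 ± 0.12, adjusted p = 1.87e-08) and Zfp36 (-1.11 ± 0.09, adjusted p = 8.64e-08) fell, beside 33.7% of all genes called. Zfp36 stood at -0.98 without 1 NFAM1+/+ library at 6 h, -0.58 with quantile normalization and -0.73 with libraries scaled to their own totals, each below 2-fold. Mir155hg was at -0.78 ± 0.15 (adjusted p = 0.000249) and Zc3h12a at -0.16 ± 0.08 (adjusted p = 0.0937).

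Levels were compared between genes as CPM per kb of exon (GENCODE vM21), over the 4 libraries of a condition. Without stimulus at 6 h the order was Zfp36l2 at 199 ± 10.0 (SD), Zfp36 at 125 ± 3.68, Zc3h12a at 23.6 ± 2.03 and Zfp36l1 at 11.8 ± 2.13 CPM per kb. Zc3h12c at 6.68 ± 1.54, Rc3h1 at 6.44 ± 0.426 and Zc3h12d at 6.37 ± 0.381 followed and did not differ beyond their spread, and Mir155hg was last at 1.76 ± 0.504. With the stimulus at 6 h Zfp36 led at 260 ± 45.0, and Zc3h12a at 38.6 ± 7.29, Mir155hg at 35.1 ± 11.0 and Zfp36l2 at 32.0 ± 8.78 overlapped. Zc3h12c at 12.4 ± 3.08, Zc3h12d at 9.42 ± 1.05, Rc3h1 at 7.94 ± 0.796 and Zfp36l1 at 5.12 ± 0.288 CPM per kb came after them, with Zc3h12d overlapping both of its neighbours. Without stimulus at 24 h Zfp36l2 at 204 ± 15 and Zfp36 at 114 ± 9.60 led again, Zc3h12a at 24.7 ± 2.49 and Zfp36l1 at 23.7 ± 3.81 overlapped, and Mir155hg was at 0.467 ± 0.207. With the stimulus at 24 h the order was Zfp36 at 122 ± 29.9, Zfp36l2 at 35.2 ± 1.83, Zc3h12a at 34.1 ± 1.18, Mir155hg at 20.6 ± 6.86 and Zc3h12c at 14.3 ± 2.10, with Rc3h1, Zfp36l1 and Zc3h12d between 5.17 and 3.02. In this order Zfp36l2 overlapped Zc3h12a, Mir155hg (13.2 to 26.9) overlapped Zc3h12c (12 to 17) and Zfp36l1 overlapped Zc3h12d. In NFAM1-/- libraries by title Mir155hg was at 14.7 ± 2.17 and Zc3h12c at 15.3 ± 2.42 CPM per kb.

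**Figure D3:**
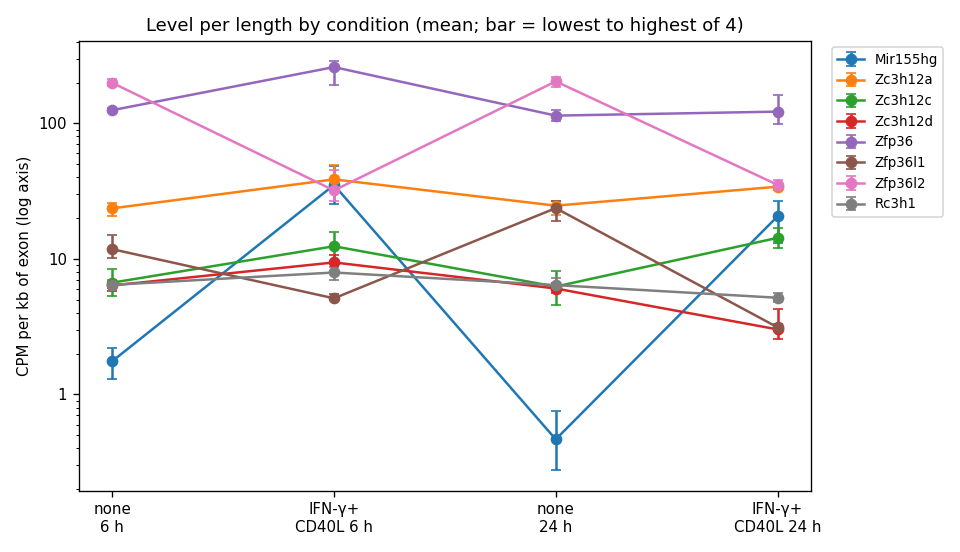
Level of each gene in CPM per kb of exon (log axis) in the 4 conditions, as the mean of 4 libraries with bars from the lowest to the highest, and lines joining the means of a gene. Zfp36l2 led without stimulus (199 and 204) and Zfp36 with it (260 and 122), and Mir155hg ran from 0.467 to 35.1.

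The genotype difference at 6 h is the one that chose the members, so its values are a description. Without stimulus Mir155hg was at 3.10 and 3.18 CPM in NFAM1+/+ and at 1.93 and 1.86 in NFAM1-/- monocytes (log2 -0.73), and with the stimulus at 69.1 and 57.6 against 38.1 and 36.5 CPM (log2 -0.76). Zc3h12c was at 57.7 and 51.5 against 37.5 and 36.4 CPM without (log2 -0.56) and at 109.1 and 95.9 against 71.6 and 63.6 CPM with the stimulus (log2 -0.60). In both genes both NFAM1-/- libraries lay below both NFAM1+/+ libraries in each stimulus. The stimulus raised Mir155hg by 4.33 in NFAM1+/+ and by 4.30 in NFAM1-/- libraries on the log2 scale, and Zc3h12c stood 0.91 and 0.87 higher.

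The other 6 members differed less between genotypes at 6 h, between -0.30 and 0.11 on the log2 scale without and between -0.40 and 0.31 with the stimulus. Zfp36, at 671 and 955 CPM in NFAM1+/+ and at 1000 and 987 in NFAM1-/- libraries with the stimulus, was the highest of these. Zfp36l2 was the lowest, at 159 and 101 against 98.3 and 93.8 CPM. Without stimulus 4 of 8 members (Mir155hg, Zc3h12c, Zfp36, Zfp36l1) had both NFAM1-/- libraries below both NFAM1+/+ ones, as did 20.3% of all genes. With it 5 of 8 (Mir155hg, Zc3h12a, Zc3h12c, Zfp36l2, Rc3h1) did, as did 18.9% of all genes. Both counts include Mir155hg and Zc3h12c, on which the choice rested. Both NFAM1-/- libraries were the higher ones for Zc3h12d and Zfp36l2 without and for Zc3h12d and Zfp36 with the stimulus. The share of all genes in that direction was not counted.

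**Figure D4:**
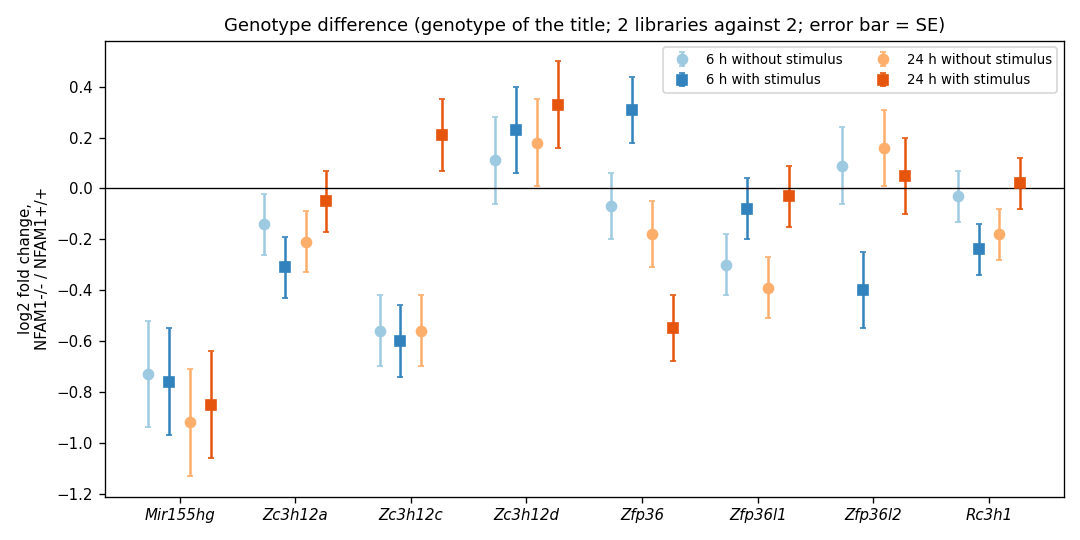
Log2 fold change of NFAM1-/- over NFAM1+/+ by title (y axis) in each gene, with 2 libraries against 2, in light and dark blue for 6 h and in light and dark orange for 24 h, and SE as error bars. Mir155hg lies between -0.73 and -0.92 in all 4 conditions by title. The 24 h values by tag, which are not plotted, are 0.51 and 0.13 for Mir155hg, 0 and -0.30 for Zc3h12c and 0.10 and 0.16 for Zfp36 without and with the stimulus.

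The 24 h libraries took no part in that choice, but their genotype rests on conflicting labels. By title no member was called at 24 h in either stimulus by limma, where 0.289% of all genes (37, with 1397 at unadjusted p under 0.05) were called without and 0.579% (74, with 1988) with the stimulus. Mir155hg was at 1.08 and 0.68 CPM in NFAM1+/+ and 0.52 and 0.40 in NFAM1-/- libraries without stimulus (log2 -0.92 ± 0.21, limma adjusted p = 0.0572). With it the values were 37.2 and 38.5 against 23.3 and 18.9 CPM (log2 -0.85 ± 0.21, adjusted p = 0.0544). Both NFAM1-/- libraries were the lower ones each time. Both differences moved with single libraries. The first was -0.60 without the higher NFAM1+/+ library, whose labels conflict, and -1.25 without the other. It was -0.74 without the lower NFAM1-/- library, whose labels also conflict, and -1.11 without the other. With the stimulus the difference was -0.87 and -0.82 without 1 or the other NFAM1+/+ library. It was -0.70 without the lower NFAM1-/- library, whose labels conflict, and -1 without the other. By genotype tag the differences were 0.51 (SE 0.38) and 0.13 (SE 0.38), each with an adjusted p of 1. In the 4 libraries at 24 h whose labels name 1 genotype, 1 against 1, they were -0.41 (adjusted p = 0.999) and -0.72 (adjusted p = 0.664), with the spread taken from the other groups.

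Averaged over both stimuli at 24 h, a comparison added after the values were seen, Mir155hg was lower by title by -0.89 ± 0.15 on the log2 scale (limma adjusted p = 0.0178), lower in 4 of 4 NFAM1-/- libraries. It did not reach 2-fold, which 0.149% of all genes did with an adjusted p under 0.05. The share at any fold was 1.29%. By tag the average was 0.32 ± 0.27 (adjusted p = 0.999), and in the libraries whose labels name 1 genotype -0.57 ± 0.16 (adjusted p = 0.437). The direction at 24 h therefore turns with the label used.

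Zc3h12c was lower in both NFAM1-/- libraries by title at 24 h without stimulus (37.7 and 31.4 against 46.4 and 55.7 CPM, log2 -0.56 ± 0.14, limma adjusted p = 0.0776), but not with it (93.1 and 116.5 against 82.0 and 98.9 CPM, log2 0.21 ± 0.14, adjusted p = 0.523). The difference between these 2 was 0.77 ± 0.19 (adjusted p = 0.094). By tag these values of Zc3h12c were 0 (SE 0.20) without and -0.30 (SE 0.20) with the stimulus, each with an adjusted p of 1, and in the libraries whose labels name 1 genotype -0.56 (adjusted p = 0.386) and -0.09 (adjusted p = 1). The difference between stimuli was then -0.30 and 0.48, each with an adjusted p of 1. Zfp36 was at 341 and 344 CPM in NFAM1-/- and 561 and 447 in NFAM1+/+ libraries with the stimulus (log2 -0.55 ± 0.13, adjusted p = 0.0516), at 0.16 by tag and at -0.39 in the libraries whose labels name 1 genotype, each with an adjusted p of 1. Without the higher NFAM1+/+ library, whose labels conflict, it was at -0.38 (adjusted p = 0.501). The other members lay between -0.39 and 0.18 without and between -0.05 and 0.33 with the stimulus, with adjusted p-values of 0.212 or more. By tag they lay between -0.08 and 0.12 without and between -0.42 and 0.02 with the stimulus, and in the libraries whose labels name 1 genotype between -0.30 and 0.15 and between -0.14 and -0.02. By title and without stimulus 6 of 8 members (Mir155hg, Zc3h12a, Zc3h12c, Zfp36, Zfp36l1, Rc3h1) had both NFAM1-/- libraries lowest, beside 23.5% of all genes. With the stimulus only Mir155hg and Zfp36 did, beside 23.2%. Zc3h12d and Zfp36l2 had both NFAM1-/- libraries highest without stimulus, and no member did with it. The share of all genes in that direction was not counted.

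Marker sums of other cell types also separated by genotype title in the unstimulated 24 h libraries, and some of them in stimulated libraries. Dendritic cell markers summed to 167 to 194 CPM in NFAM1-/- against 92.9 to 102 in NFAM1+/+ libraries, neutrophil markers to 608 to 732 against 407 to 484 CPM, and B-cell markers to 198 against 127 to 135 CPM. The listed T and NK cell marker was at 3.67 to 3.68 against 1.22 to 1.81 CPM, erythroid markers (5 of 7 listed) summed to 3.60 to 13.3 against 15.7 to 21 CPM, and monocyte markers to 27200 to 29100 against 30800 to 30900 CPM. With the stimulus at 24 h monocyte markers summed to 11900 to 12000 against 8720 to 9610 CPM, and erythroid markers to 0.885 to 1.2 against 2.21 to 3.62 CPM. The T and NK cell marker was then at 2.36 to 3.07 against 3.27 to 4.02 CPM, while dendritic cell, neutrophil and B-cell sums overlapped. At 6 h with the stimulus monocyte markers summed to 10800 to 11100 in NFAM1-/- against 9160 to 9310 CPM in NFAM1+/+ libraries. B-cell sums there were 355 to 371 against 317 to 333 CPM, and dendritic cell sums 36.6 to 40.3 against 41.5 to 55.5 CPM. Erythroid sums there were 8.19 to 12.6 against 23.1 to 45.3 CPM, while neutrophil and T and NK cell ranges overlapped. At 6 h without stimulus the ranges of all lists overlapped. The part of these markers in the genotype differences was not tested.

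The machinery that the members work with was read from lists chosen by function. Counts of called genes stand beside all genes tested, of which 39.7% were called at 6 h (19.1% higher, 20.6% lower). At 24 h the share was 33.3% (14.6% higher, 18.7% lower). The 20 tested genes of deadenylation, the removal of the poly(A) tail, had 2 called higher and 0 lower at 6 h. These were Tnks1bp1, a partner of the CCR4-NOT deadenylase (log2 2.12 ± 0.10, limma adjusted p = 1.84e-10), and Btg1, an adaptor that stimulates it (1.27 ± 0.07, adjusted p = 3.81e-10). Of 18 genes of decapping and 5′ decay, 4 rose and 2 fell. The 5′ exonuclease Xrn1 went from 33.2 ± 2.66 to 200.0 ± 35.6 CPM (log2 2.58 ± 0.09, adjusted p = 3.46e-12) and the decapping enzyme Dcp2 from 48.1 ± 2.58 to 285 ± 13.6 CPM (2.57 ± 0.06, adjusted p = 2.31e-14), while Lsm2 fell by 1.51 and Lsm7 by 1.48 on the log2 scale. At 24 h Dcp2 stood at 1.55 and Xrn1 at 0.82.

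The exosome, which degrades RNA from the 3′ end, had 5 of 16 genes called lower and 0 higher at 6 h. Over all genes 20.6% were called lower and 19.1% higher. The median of the list was -0.53 against -0.13 over all genes. Exosc1 was at 16 ± 0.975 CPM without and 2.96 ± 0.266 with the stimulus (log2 -2.44 ± 0.09, limma adjusted p = 1.17e-11), Exosc5 at -1.93 and Exosc2 at -1.40. At 24 h 0 of 16 were called by limma, the median was 0, and Exosc1 was at -0.12 (adjusted p = 0.245). Of 14 genes of nonsense-mediated decay, 1 rose and 2 fell (Upf3b, -1.18, and Smg6, -1.05) at 6 h and 0 at 24 h. Median differences of these lists at 24 h were 0.14 for deadenylation, 0.29 for decapping and 0.37 for nonsense-mediated decay, beside 0.01 over all genes.

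Other RNA-binding regulators of stability had 6 of 20 genes called higher and 0 lower at 6 h, and 5 higher and 2 lower at 24 h. The shares over all genes were 19.1% higher and 20.6% lower at 6 h, and 14.6% and 18.7% at 24 h. Arid5a, which protects stem-loop mRNAs such as Il6 from Regnase-1, was at 15.9 ± 2.34 CPM without and 380 ± 39.2 with the stimulus at 6 h (log2 4.58 ± 0.05, limma adjusted p = 1.2e-16) and stood at 2.19 at 24 h. Zc3hav1, the antiviral zinc-finger protein ZAP, was at 159 ± 2.63 and 850 ± 57.3 CPM (log2 2.42 ± 0.05, adjusted p = 1.35e-14). Igf2bp2, which stabilizes mRNAs, was at 0.438 ± 0.202 CPM without and 134 ± 15.5 with the stimulus. Among 14 genes that control the members, 3 rose and 2 fell at 6 h, beside 39.7% of all genes called. Malt1, the protease that cleaves Regnase-1, stood at 1.65 ± 0.10 at 6 h and 3.81 ± 0.10 at 24 h, and Mapk14 (p38α), whose pathway inactivates tristetraprolin, at -2.43 ± 0.05 and -0.68 ± 0.05. The kinases Tbk1 and Ikbke rose at 6 h (1.54 and 1.06) and Card9 fell (-1.65).

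**Figure D5:**
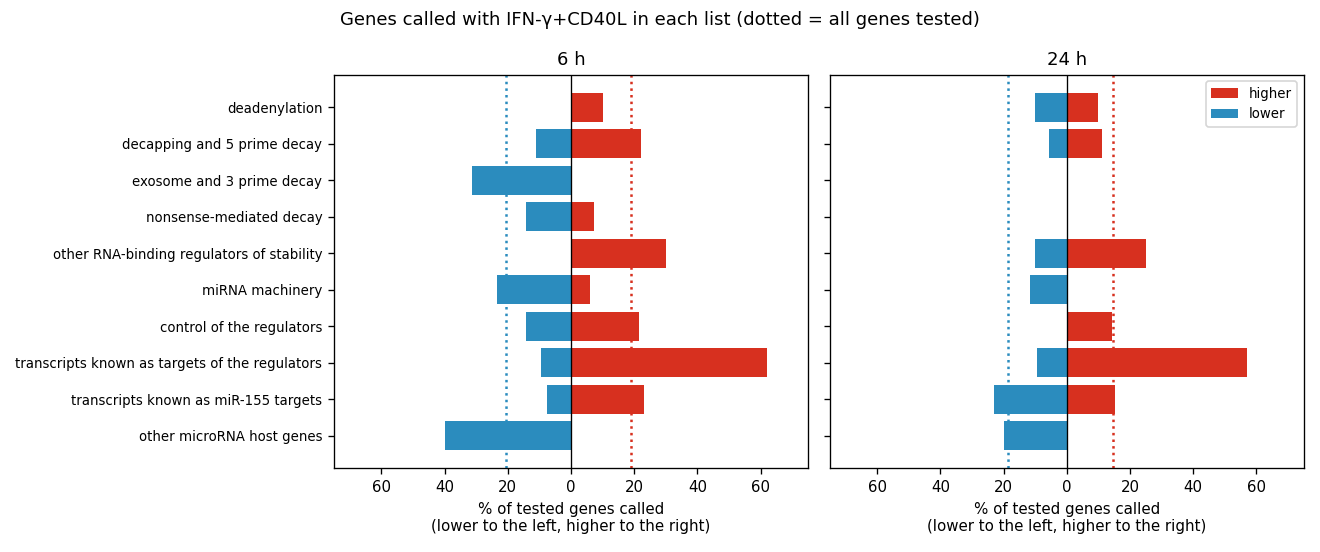
Percentage of the tested genes of each list called higher (red, to the right) or lower (blue, to the left) with IFN-γ plus CD40L at 6 h (left) and 24 h (right), with dotted lines at the shares over all genes tested (19.1% and 20.6% at 6 h, 14.6% and 18.7% at 24 h). The exosome list had 5 of 16 genes lower at 6 h and 0 at 24 h, and the list of the regulators' targets had 13 of 21 higher at 6 h and 12 at 24 h, all in the deposited scaling; with libraries scaled to their own totals these were 11 lower and 9 higher at 6 h.

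The scaling moved these counts at 6 h. Of the 37 genes that the rule names from the lists, 37 kept their sign in all 4 scalings and 27 stayed past 2-fold, Btg1 (0.22), Ikbke (0.12) and Picalm (0.16) being smallest with quantile normalization. With own totals as library sizes, 1 of 20 deadenylation genes was called higher and 5 lower, 2 of 18 decapping genes higher and 4 lower, and 0 of 16 exosome genes higher and 11 lower. In that scaling the other RNA-binding regulators had 3 of 20 called in each direction, the controlling genes 0 of 14 higher and 5 lower, and the targets of the regulators 9 of 21 higher and 4 lower. The list medians then turned to -0.60 for decapping, -0.17 for other RNA-binding regulators, -0.40 for the controlling genes and -0.27 for miR-155 targets, while the targets of the regulators stayed at 0.64. Relative to the median of all genes the exosome list was at -0.41 and the targets of the regulators at 1.5 in the deposited scaling. Own totals shift all genes of a library alike and cannot change these 2 values. With quantile normalization, which can, they were at -0.32 and 1.42.

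The microRNA machinery had 1 of 17 genes called higher and 4 lower at 6 h, and 0 and 2 at 24 h. Over all genes 39.7% were called at 6 h and 33.3% at 24 h. Zcchc6, a terminal uridylyltransferase, was at 97.5 ± 3.82 CPM without and 246 ± 29.2 with the stimulus (log2 1.33 ± 0.07, limma adjusted p = 7.78e-10). Ago4 fell at both times (-1.49 and -2.74), Prkra, a partner of Dicer, stood at -1.66 and -0.92, and Tnrc6b at -1.05 and -0.51. Among 5 other microRNA host genes tested (Mir17hg, Mir22hg, Mir142hg, Dleu2 and Ftx), 0 were called higher and 2 lower at 6 h by limma: Ftx (-1.96) and Mir17hg (-1.31, from 9.34 ± 1.03 to 3.79 ± 0.685 CPM). At 24 h 0 were called higher and 1 lower, Dleu2 (-1 on the log2 scale, at the threshold), which was not called with centring on medians. Mir22hg, at 0.29 (adjusted p = 0.00838) and 0.31 (adjusted p = 0.00578), was the highest of the 5 at both times. Mirt1 (-1.25 at 6 h) and Mirt2 (2.85 at 24 h) had been listed with them but are long non-coding RNAs not known as microRNA hosts, and these 2 were left out after their values were seen.

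Transcripts known as targets of the Zfp36, Zc3h12 and Rc3h1 proteins were mostly higher with the stimulus. Of 21 tested, 13 were called higher and 2 lower at 6 h (median 1.37), and 12 and 2 at 24 h (median 1.55). Over all genes 19.1% were called higher and 20.6% lower at 6 h, and 14.6% and 18.7% at 24 h. Ptgs2, the inducible cyclooxygenase, was at 4.78 ± 1.63 CPM without and 1060 ± 163 with the stimulus at 6 h (log2 7.85 ± 0.11, limma adjusted p = 6.28e-16) and stood at 8.34 at 24 h. Tnf was at 2.94 ± 0.10 and 2.16 ± 0.10 and Il6 at 4.40 ± 0.31 and 6.11 ± 0.31 on the log2 scale at 6 and 24 h. Il12b rose by 8.09 at 6 h, with unequal libraries (71.3 ± 70.0 CPM with the stimulus), and Ccl2 by 6.35. Il1b (-1.25) and Cxcl1 (-1.41, under 1 CPM on average) fell at 6 h, and Ccl3 turned from 1.39 to -1.19. Zfp36, itself a known target of its own protein, is 1 of the 21. By title 1 of these genes, Lif, was called lower in NFAM1-/- libraries at 24 h without stimulus (-1.52), as was 1 of the controlling genes, Ikbke (-1.06). Over all genes 0.289% were called in that comparison. Neither list had a call with the stimulus. By tag Lif was at -0.33 and Ikbke at 0.23, each with a limma adjusted p of 1, and in the libraries whose labels name 1 genotype at -1.85 (adjusted p = 0.395) and -0.83 (adjusted p = 0.0705), so that neither was called.

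The core TTATTTATT was in 7 of the 20 other tested targets. The first element of Tnf, which has 5 overlapping ones, and that of Ptgs2 are shown for comparison with those of the members, with the core in capitals. They lie at chr17:35199691-35199715 (minus strand) and chr1:150105792-150105816 (plus strand) on GRCm38.
Tnf: tgcacttaTTATTTATTatttattt
Ptgs2: gaccatatTTATTTATTtatgtgaa

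Transcripts known as miR-155 targets were called in both directions, beside 39.7% of all genes called at 6 h and 33.3% at 24 h. Of 13 tested, 3 were called higher and 1 lower at 6 h (median 0.47), and 2 and 3 at 24 h (median 0.04), and 0 were called between genotypes at 24 h by title, by tag or in the libraries whose labels name 1 genotype. Socs1, an inhibitor of IFN-γ signalling, was at 1.91 ± 0.964 CPM without and 1230 ± 230.0 with the stimulus at 6 h (log2 9.43 ± 0.23, limma adjusted p = 9e-14) and stood at 6.28 at 24 h. Picalm rose by 1.13 at 6 h. Inpp5d (SHIP1) stood at -0.14 ± 0.06 (adjusted p = 0.0515) at 6 h and -0.83 ± 0.06 at 24 h, and Cebpb at 0.08 ± 0.11 (adjusted p = 0.494) and 1.15 ± 0.11. Maf rose at 6 h (2.81) and fell at 24 h (-1.15).

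Of these 13 targets, 10 hold the complement of the miR-155-5p seed in the longest 3′ UTR. Those of Socs1, Inpp5d, Cebpb and Bach1 are shown with the 7 complementary bases in capitals, and each is followed by the a that extends the match to 8 bases. On GRCm38 they lie at chr16:10784199-10784221 (minus strand), chr1:87719830-87719852, chr2:167690358-167690380 and chr16:87732180-87732202 (all plus strand).
Socs1: tgtgccgcAGCATTAagtggggg
Inpp5d: ttttaaaaAGCATTAaagaaaac
Cebpb: ccgtttcgAGCATTAaagtgaag
Bach1: aacagtttAGCATTAagggttaa
Among these 4 transcripts with the same 7 bases, the stimulus difference at 6 h on the log2 scale thus ranged from -0.14 (Inpp5d) to 9.43 (Socs1).

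RefSeq promoter windows on GRCm38.p6, from 250 bases before to 50 after the start, were given for 7 of 8 members. Zfp36l2 had none. They were searched on both strands for TGANTCA (AP-1), TTCNNNGAA (the GAS element), TGGAAA (an NFAT core), TGACGTCA (CRE) and the κB consensus, and no matches overlapped. The Zfp36 window holds 1 GAS match, which starts 17 bases before the start site, and GAS is in 8.3% of the 32851 windows. A κB match lies 236 bases before 1 of the 2 start sites of Zc3h12c (8.46% of windows), and AP-1 matches lie 129 and 133 bases before those of Zfp36l1 and Rc3h1 (7.81%). The windows of Mir155hg, Zc3h12a and Zc3h12d hold none of the 5. The NFAT core (21.4%) and CRE (1.79%) were in no member's window. The Zfp36 window, on the minus strand at chr7:28379179-28379478, is shown with the match in capitals, as letters and not as a site shown to be bound.
Zfp36: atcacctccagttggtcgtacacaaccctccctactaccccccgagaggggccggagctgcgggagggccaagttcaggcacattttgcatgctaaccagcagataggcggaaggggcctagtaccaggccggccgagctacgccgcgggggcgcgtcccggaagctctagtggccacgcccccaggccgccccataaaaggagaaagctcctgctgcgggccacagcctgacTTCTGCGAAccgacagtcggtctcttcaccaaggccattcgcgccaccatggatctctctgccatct

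The genes most like Mir155hg and Zc3h12c were ranked by the root mean square difference between centred log2 means over the 8 groups, where 0 is an identical pattern. Nearest to Mir155hg were Cd40, the receptor of CD40L (0.39), Kcnh4 (0.42), Ms4a4d (0.45), Ccdc149 (0.53) and Acod1, the itaconate-making enzyme (0.54), with Mir155hg itself ranging over 7.12 on the log2 scale. Nearest to Zc3h12c, which ranged over 1.60, were Zmynd15 (0.19), the co-stimulatory ligand Cd80 (0.20), Dusp5 (0.20), Ier5 (0.21) and Etv3 (0.22). Among the members the closest pairs were Zc3h12a with Zc3h12c (0.32) and with Rc3h1 (0.34). Mir155hg was farthest from Zfp36l2 (3.86). All values share the same 16 libraries, and the ranking describes only these groups.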

How the data were processed

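RNA of monocytes was made into non-stranded poly(A) libraries. The sources name FastQC, STAR, Rsubread, edgeR and limma's voom as the tools of the authors and GRCm39 as the build, while the sequences printed here are on GRCm38. The authors deposited log2 CPM values, which hold 13085 genes and 16 libraries. A deposited log2 value was found to be (reads + 0.5) over a scaled library size, with 100% of values within 0.05 of a whole read, and depth was taken from this. Reads summed to 0.756 to 0.775 of the scaled size without and 1.24 to 1.32 with the stimulus at 6 h, and to 0.776 to 0.788 and 0.97 to 0.997 at 24 h. Dates stand in place of 17 symbols, and 1 symbol is repeated.

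The filter kept the 12782 genes that reached 1 CPM in 2 or more of the 16 libraries and left out 303. One model in limma 3.58.1 (R 4.3.3) held all libraries as 8 groups, with 8 residual degrees of freedom and a trended prior variance. A call required a fold of 2 or more together with an adjusted p (Benjamini-Hochberg, over all genes tested) under 0.05. The genotype difference at 6 h was not tested. For 2 libraries against 2, an exact permutation test of a single gene has a smallest two-sided p of 0.333. Replicate libraries differed by more than sampling noise. No count model was run on log2 CPM. The scripts were tested on simulated data.

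The members, lists and comparisons were chosen with earlier results of these data known. Named genes are the 8 members, Nfam1, per list up to 3 called genes with the largest rise and 3 with the largest fall at 6 h, and the 5 genes most like Mir155hg and Zc3h12c. Of the genes this rule names, 2 are counted in their lists but not reported by name here. Other listed genes (Tnf, Il6, Ccl3, Lif, Inpp5d, Cebpb, Bach1, Mir22hg, Dleu2, Mirt2) and marker genes were named after their values were seen. Alternatives were an unfiltered table, genes with a mean of 5 CPM or more, a prior of 2 reads, quantile normalization, centring on medians, each library's own total, separate fits of the times, genotype by tag, libraries with 1 genotype in their labels, no genotype term, other prior variances, voom weights, no minimum fold and each library left out. The mean over both stimuli at 24 h was added after the values were seen.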

Additional observations from a re-analysis of the deposited data

Results flagged for a closer look

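The response to the stimulus differed between 24 h and 6 h in 6 members, by the test of that difference (limma adjusted p under 0.05, any size). The difference of the log2 fold changes, 24 h minus 6 h, was 1.19 for Mir155hg, 0.32 for Zc3h12c, -1.60 for Zc3h12d, -0.97 for Zfp36, -1.71 for Zfp36l1 and -0.61 for Rc3h1. Of all genes 67.2% passed the same test, and time cannot be told apart from the set of libraries. The value of Zc3h12c lay at the threshold (adjusted p = 0.0497), and was 0.18 (adjusted p = 0.237) in the libraries whose labels name 1 genotype. The genotype difference at 24 h passed the test of a difference between stimuli in no member by title, the nearest being Zc3h12c at 0.77 (adjusted p = 0.094).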

How the results depend on the processing

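Over 1656 member values recomputed under the alternatives, 1574 kept their direction and their side of the call, 14 lost the call, 20 gained it and 48 changed sign. No alternative varied depth. The causes of the changes were not tested. No paired analysis was possible because the groups share no replicate numbers.

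With libraries scaled to their own totals, the stimulus difference at 6 h was -0.03 for Zc3h12a, -0.17 for Zc3h12d and -0.43 for Rc3h1, those of Zfp36 and Zc3h12c at 24 h were -0.26 and 0.88, the time difference of Zc3h12a with the stimulus was 0.21, its stimulus-by-time difference 0.17, and the genotype difference of Zfp36l1 at 24 h with the stimulus 0.01. With quantile normalization Rc3h1 was at -0.03 at 6 h and Zfp36 at -0.39 at 24 h for the stimulus, Zfp36l2 at -0.01 and Rc3h1 at 0.01 for time without stimulus, and Zc3h12a at 0.03 for time with it. With centring on medians Zfp36l2 was at 0 for time with the stimulus and at -0.02 for stimulus by time.

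By genotype tag the 24 h differences without stimulus were 0.51 for Mir155hg, 0.12 for Zc3h12a, -0.08 for Zc3h12d, 0.10 for Zfp36, 0.09 for Zfp36l1 and -0.02 for Zfp36l2, while Zc3h12c was at 0. With the stimulus they were 0.13 for Mir155hg, 0.02 for Zc3h12a, -0.30 for Zc3h12c, -0.42 for Zc3h12d, 0.16 for Zfp36, -0.06 for Zfp36l2 and -0.07 for Rc3h1. In libraries whose labels name 1 genotype, Zc3h12c was at -0.09, Zc3h12d at -0.09, Zfp36l2 at -0.02 and Rc3h1 at -0.05 between genotypes at 24 h with the stimulus, and Zc3h12c at 0.03 and Rc3h1 at 0.05 for time without it. Averaged over both stimuli, Zc3h12c was at -0.18 and Rc3h1 at -0.08. The adjusted p of the Mir155hg genotype difference at 24 h ran from 0.021 to 1 without and from 0.00435 to 1 with the stimulus, the average over both stimuli aside.

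Leaving out 1 library at a time moved Zfp36 at 24 h between -0.01 and 0.16 for the stimulus, Rc3h1 between -0.05 and 0.04 for time without stimulus, and Zfp36l2 between -0.03 and 0.30 for stimulus by time. For genotype at 24 h with the stimulus the ranges were -0.09 to 0.04 for Zfp36l1, -0.10 to 0.14 for Rc3h1, -0.09 to 0 for Zc3h12a, -0.04 to 0.69 for Zc3h12d and -0.03 to 0.13 for Zfp36l2.

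The number of members called without a minimum fold change was 8 for the stimulus at 6 h, 6 for time with the stimulus and 6 for stimulus by time. For time without stimulus it was 1 with centring on medians, 1 with own totals, 1 with voom weights and 1 to 2 with a library left out. For time with the stimulus it was 1 with quantile normalization, 1 with own totals and 1 to 2 with a library left out. For genotype at 24 h without stimulus it was 0 to 1 with a library left out.

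Over all genes, calls between genotypes at 24 h fell from 37 to 2 by tag, 4 in the libraries with 1 genotype in their labels and 14 with a prior variance without trend, without stimulus, and from 74 to 3, 14 and 5 with it. With the times fitted separately they were 28 and 0. They ran from 7 to 64 and from 1 to 182 with a library left out, the 1 being without the stimulated NFAM1-/- library that is highest for Zc3h12c. Without a minimum fold change they were 122 and 269, and calls for the stimulus were 10003 in place of 5069 at 6 h and 9564 in place of 4256 at 24 h, those for time 8233 in place of 2684 and 9763 in place of 4308, and those for stimulus by time 8588 in place of 4024.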
